A study of Rattus norvegicus with 6 samples.

Results

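Interleukin 1, 18 and 33 are related inflammatory cytokines, and the genes described here are 4 of their ligands (Il1a, Il1b, Il18 and Il33), the receptor antagonist Il1rn, and the receptor chains Il1r1, Il1rap and Il1rl1. They were chosen by name, with earlier results of these data known, as were the gene lists used below. All 8 were found once among the 34510 genes of the deposited table. Their transcripts were measured in neonatal rat ventricular cardiomyocytes, the contracting cells of the newborn rat's lower heart chambers, by poly(A) RNA sequencing of 3 libraries titled Bgal and 3 titled Trim28. An adenovirus carried TRIM28, a corepressor that acts on chromatin, into the cells, per the text deposited with the series. What Bgal stands for, and what those cells received, the labels leave unsaid, and they give no dose, time, batch, or age beyond neonatal. Whether each library stands for its own culture or litter is unstated, so the p-values reflect variation among these 6 libraries, possibly technical.

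In this family, the alpha and beta forms of interleukin 1 bind the receptor IL1R1, which then recruits the accessory chain encoded by Il1rap and signals through the adaptor MYD88, IRAK kinases and TRAF6 to NF-kappaB. The product of Il1rn occupies IL1R1 without recruiting the accessory chain, and IL1R2 binds the ligand without signalling. Interleukin 33, an alarmin held in the nucleus of stromal cells, binds ST2, the product of Il1rl1, which uses the same accessory chain; a soluble form of ST2 is a known marker of strained heart muscle. Interleukin 18 has its own receptor pair, and it and interleukin 1 beta are cut to their active forms by caspase-1 in inflammasomes.

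Values are FPKM, fragments scaled by gene length and library total, so levels of different genes can be compared per length. Reads assigned to genes, recovered from FPKM and gene length, ranged from 26146166 to 34593292 per library. Trim28 itself stood at 77.6 to 87.8 FPKM in the Bgal libraries and at 2923, 2890 and 980 FPKM in Trim28 libraries 1 to 3, as the labels say. Markers of cardiomyocytes were abundant in every library (Tnnt2, cardiac troponin T, 3721 to 4583 FPKM). Fold changes on the log2 scale are of FPKM + 1, tested with limma over the 14808 genes that reached 0.5 FPKM in 3 or more libraries, and a gene passed at a Benjamini-Hochberg adjusted p under 0.05.

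The 3 receptor chains and the antagonist were higher in the Trim28 libraries, while the ligands were scarce and none passed. Of the 8 genes 7 were tested, of which 4 rose (Il1r1, Il1rn, Il1rl1 and Il1rap), 0 fell and 3 did not pass (Il33, Il1a and Il1b). Over all genes tested, 41.2% passed in either direction and 20.1% were called higher. A test on reads recovered from the FPKM values (limma-voom) called 4 of the 7 higher too, against 20.7% of all genes. The median log2 change of the 7 tested genes was 0.48, against -0.02 for all genes tested. In the same 4 genes all Trim28 libraries lay above all Bgal libraries, as did 26% of all genes tested. In bulk RNA, more cells of a type and more RNA per cell cannot be told apart.

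**Figure D1:**
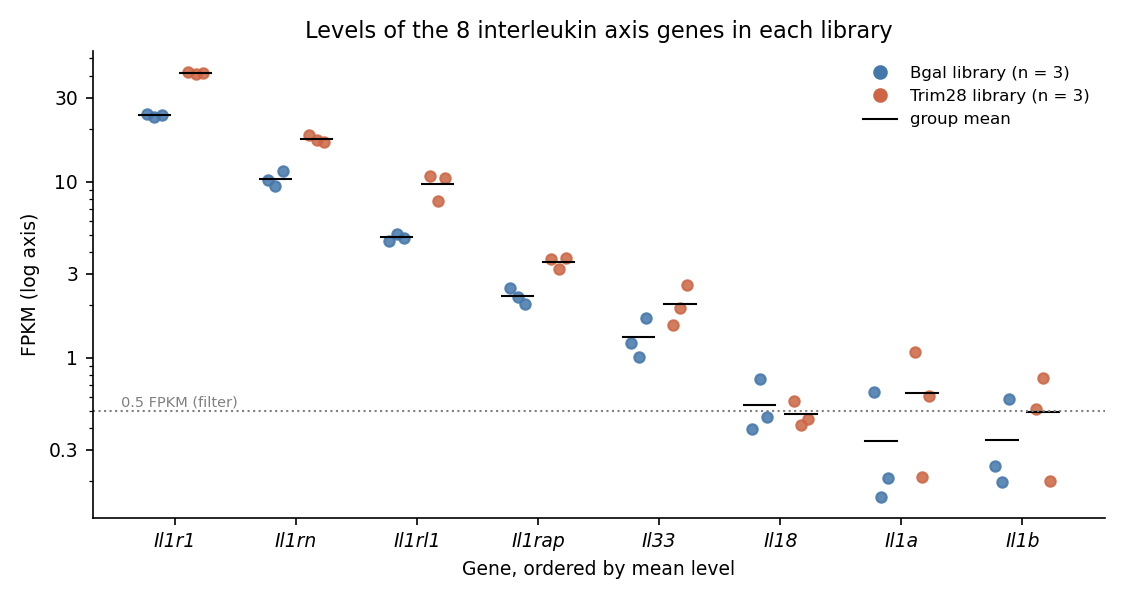
Level of each gene in FPKM (log axis) in the 3 Bgal (blue) and 3 Trim28 (orange) libraries, with group means as black lines and the filter value of 0.5 FPKM dotted. The groups are apart for Il1r1, Il1rn, Il1rl1 and Il1rap and overlap for Il33, Il18, Il1a and Il1b.

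The order of mean levels per length over the 6 libraries was Il1r1 (32.6 FPKM), Il1rn (13.9 FPKM), Il1rl1 (7.25 FPKM), Il1rap (2.87 FPKM), Il33 (1.66 FPKM), Il18 (0.507 FPKM), Il1a (0.482 FPKM) and Il1b (0.417 FPKM). Within each group, the ranges of neighbours in this order did not overlap down to Il33 and Il18. Il18, Il1a and Il1b overlapped in both groups, so their order is not resolved. The libraries of a group agreed most closely for Il1r1, with a coefficient of variation of 1.56% in the Bgal group and 1.55% in the Trim28 group, and least for Il1a, with 78.7% and 68.7%.

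Il1r1, the signalling receptor for both forms of interleukin 1 (ENSRNOG00000014504, chromosome 9, 46962288 to 47036670, plus strand), was the most abundant of the 8. It stood at 24.1, 23.4 and 23.8 FPKM in Bgal libraries 1 to 3 and at 41.9, 40.6 and 41.5 FPKM in Trim28 libraries 1 to 3. The groups were far apart relative to the spread within them. The mean rose 1.74-fold, from 23.8 ± 0.370 to 41.3 ± 0.642 FPKM (SD, n = 3 each). The log2 change was 0.77 ± 0.04 (SE), with 0.68 to 0.87 as its 95% confidence limits (limma, adjusted p = 4.95e-05).

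Il1rl1, the ST2 receptor for interleukin 33 (ENSRNOG00000014835, chromosome 9, 47134034 to 47182170, plus strand), had the largest fold change of the 4 that passed. Its levels were 4.62, 5.02 and 4.81 FPKM in the Bgal libraries and 10.8, 7.79 and 10.5 FPKM in the Trim28 libraries. The second Trim28 library was the lowest of its group and still above all Bgal libraries. The mean rose 2.01-fold, from 4.81 ± 0.199 to 9.68 ± 1.64 FPKM (SD, n = 3 each), a log2 change of 0.87 ± 0.12 (SE; limma, adjusted p = 0.0013). The table gives 1 value per gene, so the soluble and the membrane form of ST2 cannot be told apart. The deposited descriptions list immunoglobulin domains for Il1rl1 and no TIR domain, the part of a receptor inside the cell that signals. They list a TIR domain for Il1r1, Il1rap and Il1rl2. For Il18r1, a chain of the interleukin 18 receptor, no domain is listed, so a missing entry does not show that a domain is absent.

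Il1rap, the accessory chain shared by the interleukin 1 and interleukin 33 receptors (ENSRNOG00000001928, chromosome 11, 77463954 to 77593207, minus strand), stood at 2.50, 2.20 and 2.01 FPKM in the Bgal libraries and at 3.64, 3.19 and 3.69 FPKM in the Trim28 libraries. All Trim28 values were above all Bgal values. The mean rose 1.57-fold, from 2.24 ± 0.249 to 3.51 ± 0.278 FPKM (SD, n = 3 each), a log2 change of 0.48 ± 0.10 (SE; limma, adjusted p = 0.00773). Its level per length was below those of Il1r1 and Il1rl1 in each library.

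Il1rn, the antagonist of IL1R1 (ENSRNOG00000005871, chromosome 3, 1452644 to 1468614, plus strand), had the highest mean RNA level per length among the family's ligand, antagonist and inhibitor genes. Protein and secretion were not measured. Il1rn stood at 10.3, 9.47 and 11.4 FPKM in the Bgal libraries and at 18.4, 17.1 and 16.8 FPKM in the Trim28 libraries. The groups did not overlap. The mean rose 1.68-fold, from 10.4 ± 0.977 to 17.5 ± 0.847 FPKM (SD, n = 3 each), a log2 change of 0.70 ± 0.08 (SE; limma, adjusted p = 0.000543).

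The 4 genes that passed differed in their order among the Trim28 libraries. In the third library, where Trim28 stood at 980 FPKM against 2923 and 2890 FPKM in the others, Il1r1 and Il1rl1 lay between the other libraries, Il1rap was the highest and Il1rn the lowest of the group.

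Among the ligands, Il33 (ENSRNOG00000016456, chromosome 1, 248132090 to 248147029, plus strand) was the most abundant. It stood at 1.22, 1.01 and 1.69 FPKM in the Bgal libraries and at 1.54, 1.90 and 2.59 FPKM in the Trim28 libraries, on 72 to 182 reads per library. The first Trim28 library was below the third Bgal library, so the groups overlapped. The means were 1.31 ± 0.347 and 2.01 ± 0.536 FPKM (SD, n = 3 each). The log2 difference of 0.38 did not pass, and its 95% confidence limits were -0.01 and 0.77 (limma, adjusted p = 0.107).

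Il1a (ENSRNOG00000004575, chromosome 3, 121825412 to 121836086, minus strand) stood at 0.641, 0.162 and 0.206 FPKM in the Bgal libraries and at 1.07, 0.21 and 0.603 FPKM in the Trim28 libraries, which came to between 6 and 38 reads per library. One library of each group was several times above the lowest of its group. At 0.27 on the log2 scale, with 95% confidence limits of -0.27 and 0.80, the difference did not pass (limma, adjusted p = 0.385). Il1b (ENSRNOG00000004649, chromosome 3, 121876263 to 121882726, minus strand) stood at 0.242, 0.197 and 0.584 FPKM in the Bgal libraries and at 0.513, 0.765 and 0.200 FPKM in the Trim28 libraries. It had between 8 and 28 reads per library, an even number in all 6, and no source used here says what was counted as 1 read. Its difference, 0.15 on the log2 scale with 95% confidence limits of -0.29 and 0.58, did not pass either (limma, adjusted p = 0.559). The limits of both ligands include 0 and reach past 0.48, so a difference of that size on this scale was not excluded. Adding 1 FPKM shrinks log2 changes at such low levels. On recovered reads they were 0.84 for Il1a and 0.43 for Il1b, and neither passed (limma-voom, adjusted p = 0.345 and 0.58).

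Il18 (ENSRNOG00000009848, chromosome 8, 54993859 to 55016299, plus strand) reached 0.5 FPKM in 2 libraries and was not tested. It stood at 0.391, 0.752 and 0.462 FPKM in the Bgal libraries and at 0.569, 0.416 and 0.450 FPKM in the Trim28 libraries, on 11 to 22 reads. The groups overlapped, and its means of 0.535 ± 0.191 and 0.479 ± 0.0805 FPKM (SD, n = 3 each) placed it as the only one of the 8 with a lower mean in the Trim28 group. With no filter on low values its log2 difference was -0.05, with a limma adjusted p of 0.781.

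Both forms of interleukin 1 together came to 0.883, 0.360 and 0.790 FPKM in the Bgal libraries and to 1.58, 0.974 and 0.802 FPKM in the Trim28 libraries, below the antagonist Il1rn in every library. The log2 ratio of these agonists to the antagonist, with 1 FPKM added to each, was -2.77 ± 0.183 in the Bgal group and -3.14 ± 0.205 in the Trim28 group (SD, n = 3 each). The difference of -0.36 did not pass a two-sided exact permutation test (p = 0.2), and a comparison of 3 with 3 cannot go below 0.1. With 0.1 FPKM added in place of 1 the difference was -0.07 (exact permutation p = 0.9).

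The promoters of the 3 most abundant genes, which rose together, are shown as the 250 bases before the transcription start, from RefSeq on the build GRCr8. All 8 genes had an entry in that table. Capitals mark matches, on either strand, to GGGNNNNNCC for NF-kappaB, the factor that interleukin 1 signalling activates, to TGANTCA for AP-1 and to TATAAA for a TATA box.
Il1r1, chr9:50034133-50034382, plus strand: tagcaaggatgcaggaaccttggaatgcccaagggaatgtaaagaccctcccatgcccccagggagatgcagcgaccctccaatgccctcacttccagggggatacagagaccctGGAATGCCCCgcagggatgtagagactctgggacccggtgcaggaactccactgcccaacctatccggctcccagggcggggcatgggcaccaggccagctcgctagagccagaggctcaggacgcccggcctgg
Il1rn, chr3:27520072-27520321, plus strand: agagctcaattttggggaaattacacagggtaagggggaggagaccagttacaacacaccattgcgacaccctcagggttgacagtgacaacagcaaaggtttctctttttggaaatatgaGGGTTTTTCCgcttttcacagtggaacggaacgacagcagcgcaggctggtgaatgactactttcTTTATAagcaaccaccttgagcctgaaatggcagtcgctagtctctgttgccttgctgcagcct
Il1rl1, chr9:50203388-50203637, plus strand: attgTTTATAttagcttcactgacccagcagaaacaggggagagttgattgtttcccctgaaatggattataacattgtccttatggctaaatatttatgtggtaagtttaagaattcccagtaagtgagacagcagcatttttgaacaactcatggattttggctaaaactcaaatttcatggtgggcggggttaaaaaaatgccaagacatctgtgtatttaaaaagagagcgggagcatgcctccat
The Il1r1 window held 1 NF-kappaB match, beginning 135 bases before the start. The Il1rn window held 1 as well, beginning 129 bases before the start, and a TATAAA match on the other strand beginning 64 bases before it. The Il1rl1 window held no NF-kappaB match and a TATAAA match on the other strand, beginning 246 bases before the start. Of 33469 windows of the same length in the table, 42.3% held the NF-kappaB letters, 6.34% the AP-1 letters and 12.9% the TATAAA letters, so such a match is common, and none is shown to be a bound site. RefSeq can list several starts for a gene, and which start these cells used was not measured.

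Among the other 13 genes of the family, 3 were tested, of which 2 rose, 0 fell and 1 did not pass. Over all genes tested, 20.1% were called higher and 21.1% lower. Il1r2, the decoy receptor, stood at 0.488, 0.479 and 0.789 FPKM in the Bgal libraries and at 1.79, 2.33 and 1.43 FPKM in the Trim28 libraries. It rose 3.16-fold, a log2 change of 0.84 ± 0.15 (SE; limma, adjusted p = 0.00415), although 2 of its Bgal values lay under the filter value. Il1rl2, the receptor for the interleukin 36 cytokines, rose 1.87-fold, from 1.88 ± 0.0292 to 3.53 ± 0.229 FPKM (SD, n = 3 each, limma adjusted p = 0.00118). The cytokines that bind it, Il36a, Il36b and Il36g, had at most 5 reads in any library, and Il36g was listed at 0 in all 6.

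Il18bp, the soluble inhibitor of interleukin 18, was more abundant than interleukin 18 itself, at 9.12, 8.66 and 6.79 FPKM under Bgal against 10.4, 9.96 and 6.30 FPKM under Trim28. The third library was the lowest of each group. The difference, 0.08 on the log2 scale with 95% confidence limits of -0.34 and 0.51, did not pass (limma, adjusted p = 0.739). It was -0.03 without Bgal replicate 3, -0.03 without Trim28 replicate 1 and -0.00388 without Trim28 replicate 2. Both chains of the interleukin 18 receptor were below the filter. Il18r1 rested on 16, 7 and 8 reads under Bgal against 18, 13 and 20 under Trim28. Il18rap rested on 2, 0 and 4 against 10, 13 and 26 reads. With no filter neither passed (limma adjusted p = 0.144 for Il18r1 and 0.0772 for Il18rap). Sigirr, an inhibitory receptor of the family, had 1 to 12 reads per library. Il1rapl1, Il1rapl2, Il1f10 and Il36rn had at most 5 reads in any library.

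**Figure D2:**
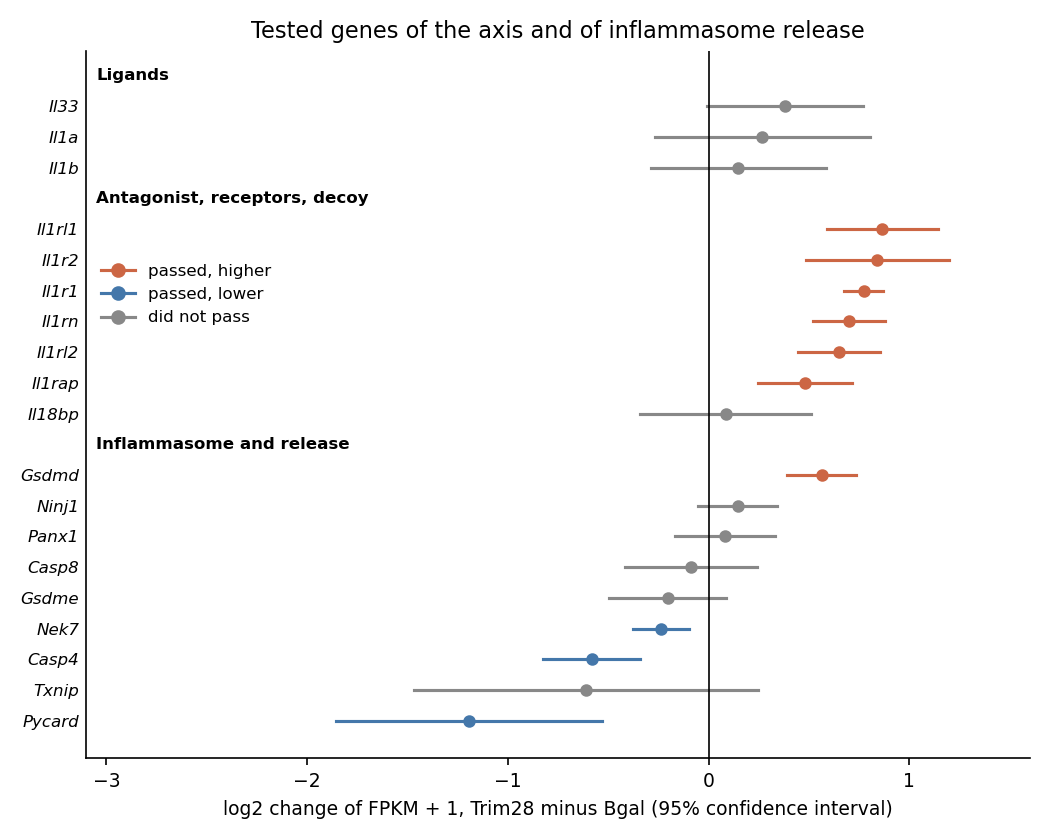
Log2 change of FPKM + 1 between the groups with its 95% confidence interval, for the tested ligands, the tested antagonist, receptor and inhibitor genes, and the tested inflammasome and release genes. The receptor chains, the decoy and Il1rn lie above 0, the ligand intervals include 0, and Pycard, Casp4 and Nek7 lie below it.

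By the coordinates of the deposited table, for which no source used here names a build, Il1r2, Il1r1, Il1rl2, Il1rl1, Il18r1 and Il18rap follow each other in this order on the plus strand of chromosome 9. This position was examined after the values were seen. The cluster runs from 46840992, the start of Il1r2, to the end of Il18rap 296 kb after the start of Il1r1. The 4 tested genes of the cluster (Il1r2, Il1r1, Il1rl2 and Il1rl1), whose calls are those given above, all rose, by 1.74-fold to 3.16-fold. Over all genes tested, 20.1% were called higher. For Il18r1 and Il18rap, which were not tested, every Trim28 value was above every Bgal value, on few reads. The same held for 26% of all genes tested. Levels within the cluster differed widely, from 41.3 ± 0.642 FPKM for Il1r1 in the Trim28 group to 0.111 ± 0.0537 FPKM for Il18rap. The nearest named gene before the cluster, Map4k4, which encodes a kinase, rose 1.16-fold, from 54.4 ± 1.21 to 63.1 ± 1.97 FPKM (limma adjusted p = 0.00684). The nearest after it, Slc9a4, was listed at 0 in every library. Il1a and Il1b, neighbours on the minus strand of chromosome 3, did not pass, and the antagonist Il1rn lies on the same chromosome far from both.

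**Figure D3:**
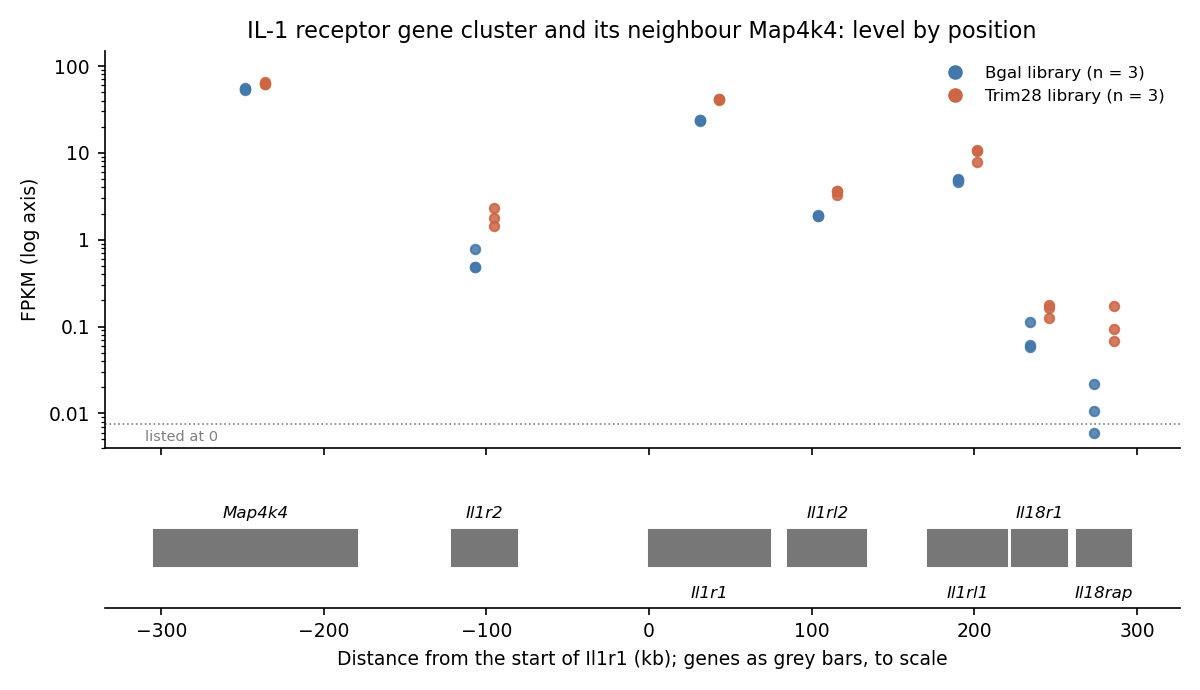
Level in FPKM (log axis) of the receptor genes and of Map4k4 in the 3 Bgal (blue) and 3 Trim28 (orange) libraries, each plotted at its place relative to the start of Il1r1 (kb), with genes as grey bars to scale. Unnamed entries at or near 0 within the cluster are not drawn. In each gene the Trim28 points lie above the Bgal points, while the level ranges from 65.3 FPKM for Map4k4 to a value listed at 0 for Il18rap.

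The genes that process and release interleukin 1 beta and interleukin 18 went both ways. Of 17 found, 9 were tested, of which 1 rose, 3 fell and 5 did not pass, with a median log2 change of -0.20. Over all genes tested, 20.1% were called higher and 21.1% lower, and 9 tested genes are too few to be set apart from these shares. Pycard, the ASC adaptor that links sensors to caspase-1, stood at 6.34, 4.72 and 4.62 FPKM in the Bgal libraries and at 0.696, 2.80 and 2.07 FPKM in the Trim28 libraries. It fell to 0.355 times its Bgal mean, a log2 change of -1.19 ± 0.28 (SE; limma, adjusted p = 0.013). Casp4, an inflammatory caspase that cuts gasdermin D, fell from 5.38 ± 0.617 to 3.25 ± 0.297 FPKM (SD, n = 3 each, limma adjusted p = 0.00388).

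Nek7, a kinase that NLRP3 needs to assemble, fell from 33.7 ± 1.06 to 28.5 ± 1.89 FPKM (limma adjusted p = 0.0164). This call was lost when FPKM was rescaled to TPM (adjusted p = 0.0586) and without Bgal replicate 1 (adjusted p = 0.0561). Gsdmd, gasdermin D, the pore through which interleukin 1 beta leaves the cell, was the member that rose. It stood at 15.6, 15.4 and 13.2 FPKM in the Bgal libraries and at 22.01, 23.0 and 21.5 FPKM in the Trim28 libraries, 1.51-fold higher, with a limma adjusted p of 0.00102. Casp1, the caspase that cuts both cytokines, and the sensor gene Nlrp3 were below the filter. Casp1, named here after its values were seen, stood at 0.533, 0.405 and 0.133 FPKM in the Bgal libraries and at 1.08, 0.498 and 0.341 FPKM in the Trim28 libraries, and the groups overlapped.

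Of 23 tested genes that relay the signal from these receptors, 4 rose, 6 fell and 13 did not pass, with a median log2 change of 0.03. These shares are near the 20.1% called higher and 21.1% called lower among all genes tested. Tab2, an adaptor of the kinase TAK1, rose from 35.9 ± 1.05 to 56.7 ± 0.681 FPKM (limma adjusted p = 8.65e-05). Peli1 and Peli2, ubiquitin ligases that act on IRAK kinases, rose 1.83-fold and 2.39-fold (limma adjusted p = 0.00185 and 0.00177). Ikbkg, which encodes the NEMO subunit of the IKK complex, fell from 14.3 ± 0.373 to 10.6 ± 1.39 FPKM (limma adjusted p = 0.0104). The number that fell was 3 without Bgal replicate 1, 2 without Bgal replicate 3, and 3, 2 and 3 without Trim28 replicates 1, 2 and 3. Myd88, the adaptor they share, stood at 7.63, 8.37 and 7.49 FPKM in the Bgal libraries and at 7.89, 8.35 and 8.72 FPKM in the Trim28 libraries. It did not pass (limma adjusted p = 0.418) and was named after its values were seen.

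Genes known to be induced by interleukin 1 in stromal cells were mostly higher. Of 23 tested, 20 rose, 0 fell and 3 did not pass (Lif, Sod2 and Bcl3), with a median log2 change of 0.69. Over all genes tested, 20.1% were called higher and 21.1% lower. The list of response genes too was drawn up with earlier results of these data known. Other signals that act through NF-kappaB induce the same genes. With no filter on low values, 17 of 27 rose and 0 fell, where 11.7% of all genes were called higher, and Il11 passed the main filter through the Trim28 libraries alone. Lcn2, an iron-carrier binding protein of inflamed tissue, rose from 105 ± 6.86 to 308 ± 25.9 FPKM (SD, n = 3 each, limma adjusted p = 3.28e-05). Icam1, an adhesion molecule for leukocytes, rose 1.89-fold (limma adjusted p = 0.000163). The chemokine genes Cxcl1 and Ccl2 rose 1.65-fold and 1.71-fold.

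**Figure D4:**
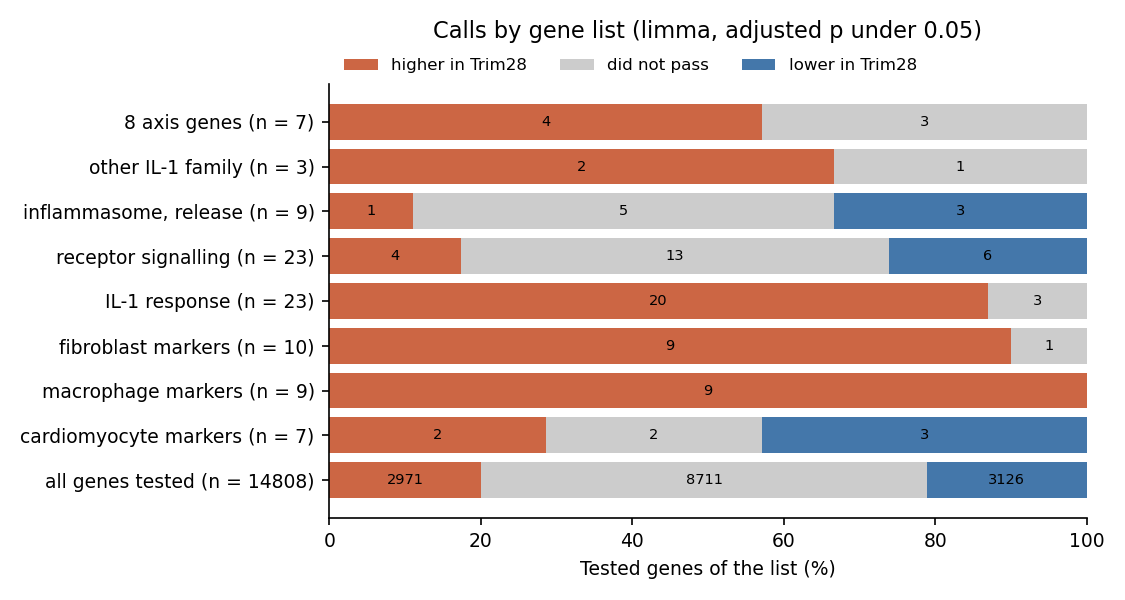
Share of the tested genes of each list that passed higher (orange), did not pass (grey) or passed lower (blue) in the Trim28 libraries, with the number of genes in each block and the number tested in parentheses. The 8 axis genes show 4 higher and 0 lower of 7 tested and the interleukin 1 response genes 20 and 0 of 23, against 2971 and 3126 of all 14808 genes tested.

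Markers of other cell types moved in the same libraries, where 20.1% of all genes tested were called higher and 21.1% lower. Of 10 tested fibroblast markers 9 rose and 0 fell, and their summed level was 449 to 468 FPKM in the Bgal libraries and 798 to 866 FPKM in the Trim28 libraries. Of 13 macrophage markers found, all 9 tested rose, of which Lyz2, Cd68 and Fcer1g were the most abundant, and the summed level was 36.8 to 38.3 FPKM against 82.8 to 87.7 FPKM. Cd163, C1qb and C1qc were at or near 0, and Adgre1 reached the filter value in Trim28 libraries only. Of 7 tested smooth muscle and pericyte markers 5 rose and 1 fell, and Kcnj8, 1 of the 5, reached the filter value in Trim28 libraries only. Their summed level, mostly Acta2, was 652 to 852 FPKM in the Bgal libraries and 1387 to 1486 FPKM in the Trim28 libraries. Of 4 tested endothelial markers 2 rose and 1 fell. The summed level of the endothelial markers found, mostly Eng, was 41.9 to 50.1 FPKM against 92.6 to 95.3 FPKM. Of 7 cardiomyocyte markers, all present, 2 rose (Nppa and Actn2) and 3 fell (Tnnt2, Tnni3 and Mybpc3), and the sum was 14560 to 15522 FPKM against 14923 to 16209 FPKM. With no filter, the calls of Nppa and Tnnt2 were lost (limma adjusted p = 0.0574 and 0.169), and that of Tnnt2 also without Trim28 replicate 1 or 2 (0.0623 and 0.0566). Without Nppa, a natriuretic peptide gene also induced by stress and left out after its values were seen, the sum was 10400.3 to 10952 FPKM in the Bgal libraries and lower, at 9306 to 9419 FPKM, in every Trim28 library. The ratios of the fibroblast, macrophage, smooth muscle and endothelial sums, the endothelial one carried by Eng, were as large as those of Il1r1, Il1rn and Il1rap. The part of these cells in the interleukin results was not tested.

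Mast cells, T and NK cells and neutrophils are only some of the cell types known for ST2 or the interleukin 18 receptor. Most of their markers left few transcripts. Which cells gave the Il1rl1 transcripts was not tested. Of the mast cell markers, Cpa3, Fcer1a, Ms4a2 and Tpsab1 were at or near 0 in every library, with Fcer1a listed at 0 in all 6. Hdc, the histamine-forming enzyme, rose 2.55-fold, from 0.799 ± 0.199 FPKM in the Bgal group (limma adjusted p = 0.00242). Kit, which other cells also express, stood at 6.07 ± 0.838 and 5.38 ± 0.192 FPKM (limma adjusted p = 0.282). Of the T and NK cell markers, Cd3e and Nkg7 were listed at 0 in all 6 libraries, and Cd8a had 2 to 18 reads. Cd4, the only 1 tested, stood at 0.514, 0.551 and 0.416 FPKM under Bgal against 0.738, 0.872 and 1.02 FPKM under Trim28, so the groups did not overlap. It did not pass (limma adjusted p = 0.0575), but did with no filter (adjusted p = 0.0445) and with no intensity trend (adjusted p = 0.0173). Of the neutrophil markers, S100a9 was listed at 0 in all 6, and the only 1 tested, Camp, did not pass (limma adjusted p = 0.214). Camp did pass in 1 of 16 alternatives, with a single library left out (limma adjusted p = 0.0383).

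Genes whose log2(FPKM + 1) was most like that of a member over the 6 libraries are given as a description, since the libraries form 2 groups and any gene that differs between them correlates. Closest to Il1r1 was Thbs2, a matrix glycoprotein (Pearson r = 0.999), which stood at 6.08 ± 0.0773 and 15.8 ± 0.495 FPKM, followed by Cybb, a subunit of the phagocyte NADPH oxidase, and Fnbp4 (r = 0.999 for each). Closest to Il1rn were Scara5, Tspan2 and Ifit2 (r = 0.998 for each). Thada, Jmjd8 and Pxdn were closest to Il1rl1 (r = 0.997, 0.993 and 0.993), and Fam149a, Qtrt1 and Kat2a to Il1rap (r = 0.998, 0.995 and 0.993). For the ligands, the closest were Abcb4, Xrcc3 and Dnajb11 to Il33 (r = 0.987, 0.977 and 0.977), Baz2b, Anks1a and Tmem117 to Il1a (r = 0.968, 0.960 and 0.959), and Eif5a, Polg2 and Osbpl6 to Il1b (r = 0.985, 0.978 and 0.977). All 9 of these passed in neither direction, and the 12 closest to Il1r1, Il1rn, Il1rl1 and Il1rap all rose. This largely follows from choosing genes by their likeness to a member.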

How the data were processed

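Poly(A) RNA libraries were prepared with dUTP marking of the second strand and read in pairs, per the labels' protocols. The authors deposited FPKM values, per the file headers, for 34510 genes, each library in a column of its own, and 0 columns belonged to other samples. The submitters' processing notes name HISAT2 2.0.5 and DESeq2 as tools of the authors. No source used here gives the counting tool, its strand setting, the build or the annotation. FPKM divides by the library total, so abundant genes lower all others, and short or scarce genes rest on few reads.

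Multiplied by gene length, 100% of FPKM values above 0 came out as whole reads (tolerance 0.01) once divided by what 1 read is worth in that library. Genes reaching 0.5 FPKM in 3 or more libraries were compared as log2(FPKM + 1) in R 4.3.3 using limma 3.58.1 (its trend option) and Benjamini-Hochberg adjustment over 14808 genes. All tests were two-sided. Alternatives changed the pseudocount, filter, scaling, variance model and unit (limma-voom on recovered reads), added a replicate block, or left out each library. The step was tested on simulated reads.

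The 8 genes and all gene lists were chosen with earlier results of these data known. Of each list, up to 4 tested genes with the smallest p-values were named, up to 3 of the most abundant of marker lists, every other gene of the family, and the 3 genes most like each tested member with a mean of at least 1 FPKM. Nlrp1b, Nos2, Ube2v1, Itgam and Pecam1, which stood in the lists, had no row under that symbol. Of the marker lists, only those genes that a comparison rests on are named.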

Additional observations from a re-analysis of the deposited data

How the results depend on the processing

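Under each of 17 alternatives (15 for Il1a and Il1b, which stricter filters removed), 4 rose and 0 fell, and all 7 tested genes kept their direction and their side of the threshold. The highest adjusted p among the genes that rose was 0.0302, for Il1rap without Trim28 replicate 1, and the lowest among those that did not pass was 0.0573, for Il33 with the replicate block. The IL-1 agonist to antagonist ratio moved to -0.0725 with a pseudocount of 0.1 and lay between -0.48 and -0.27 without single libraries. Of the receptor signalling genes, 6 fell, but 3 with no filter or with FPKM rescaled to TPM, and 2 to 3 without Bgal replicate 1, Bgal replicate 3 or any Trim28 replicate; 4 fell without Bgal replicate 2. The cause was not tested. Of the interleukin 1 response genes, between 15 and 20 rose and 0 fell. The Il18bp log2 change, between -0.0299 and 0.289 without single libraries, reversed to -0.0296 without Bgal replicate 3, to -0.0299 without Trim28 replicate 1 and to -0.00388 without Trim28 replicate 2. Calls of the gene lists under these alternatives were added after seeing the data. With the replicate block, 2744 genes rose and 2922 fell. The deviations of libraries with the same number correlated at -0.02, 0.13 and 0.01, and not every library correlated best with its own number, so the numbers were not taken as pairs. The 6 to 38 reads of Il1a, Il1b and Il18 per library limit those genes.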
